A study of Cavia porcellus with 34 samples.

Results

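The 8 genes described here set whether a neuron releases glutamate or GABA, or handle GABA after release: the vesicular glutamate transporters SLC17A6, SLC17A7 and SLC17A8, the vesicular GABA transporter SLC32A1, the glutamate decarboxylases GAD1 and GAD2, the GABA transporter SLC6A11 and the GABA transaminase ABAT. They were picked out of the tables by gene symbol, as a set chosen with earlier results of these data known, and all 8 had a row in each of the 3 tables, of 12114 (F1), 12207 (F2) and 12068 genes (F3). A total of 12592 symbols occurred in at least 1 table.

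RNA was sequenced from micropunches of the paraventricular nucleus (PVN) of the hypothalamus, the nucleus whose CRH neurons start the hormonal stress response. The animals were juvenile female guinea pigs at postnatal day 40, descended through the paternal line from F0 dams that had been injected in pregnancy with the synthetic glucocorticoid betamethasone (sGC) or with saline vehicle (Veh). F1 animals were themselves exposed in utero. The F2 and F3 animals received no treatment of their own and descended from F1 male breeders, a set separate from the juvenile animals studied. The groups held 5 Veh and 5 sGC animals for F1, the same numbers for F2, and 6 of each for F3. Veh and sGC are the groups that the labels call Control and Beta. The punch took the anteromedial hypothalamus with the whole PVN and may hold adjacent regions, so each value is an average over neurons and glia.

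A neuron is glutamatergic when it loads its vesicles with glutamate through a vesicular glutamate transporter. In the hypothalamus and thalamus this is mostly SLC17A6 (VGLUT2), while SLC17A7 (VGLUT1) is typical of cortex and hippocampus and SLC17A8 (VGLUT3) is found in scattered cell groups. A GABAergic neuron makes GABA from glutamate with GAD1 (GAD67) and GAD2 (GAD65) and loads it with SLC32A1 (VGAT). GABA neurons in and around the PVN restrain its CRH neurons. SLC6A11 (GAT-3) takes up GABA into astrocytes, and ABAT breaks it down in mitochondria.

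The values are normalized counts, that is, reads per gene after the removal of unwanted variation by the authors, rounded to whole numbers. They summed to 15573233 to 21935501 per animal in F1, 15645962 to 19435104 in F2 and 18692048 to 18977539 in F3. Each generation was normalized in its own table, so sGC was compared with Veh only within a generation. They are not divided by gene length, so levels of different genes are not compared. Fold changes are differences of log2(value + 1) between group means, tested with limma over all genes of a table with Benjamini-Hochberg adjustment, and a gene was called when its adjusted p was under 0.05. A second scale divided each animal by its median-of-ratios size factor, because the sums differed between animals in F1 and F2. In this bulk tissue, fewer cells of a type and less RNA per cell cannot be told apart.

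Markers of the PVN were looked up, though a row in a table does not show how well a punch was placed. A list of 7 thalamus genes also had a row for all 7 in F1 and in F3. All 9 genes of a PVN list, among them AVP, OXT, CRH, SIM1 and OTP, had a row in each table. Their values summed to 25185 to 221334 per animal in F1, 64595 to 179072 in F2 and 20528 to 60433 in F3. In F1 Veh the means of AVP and OXT were 89633 and 70791.

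None of the 8 genes was called in any generation, on the deposited scale or with size factors. The same tests called 78 of 11874 genes in F1 (0.657%), 0 of 11965 in F2 (0.0%) and 6 of 11866 in F3 (0.0506%), and with size factors 17.3%, 0.0% and 0.0421%. At an unadjusted limma p under 0.05 on the deposited scale, 5 of the 8 passed in F1, 1 in F2 and 2 in F3. The shares of all genes were 13.6%, 11.7% and 13.1% (1395 genes in F2), and the GABA genes among the 8 are not independent of each other. With size factors only SLC17A8, GAD2 and SLC6A11 had an unadjusted limma p under 0.05 in F1, where 3912 of 11870 genes did. The values of the Veh and sGC groups overlapped for each of the 8 genes in each generation, as they did for all but 2.04% of genes in F1, 2.4% in F2 and 1.21% in F3. The GABA genes differed most in F1, where the GAD2 mean of sGC was 0.64 above that of Veh on the log2 scale.

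**Figure D1:**
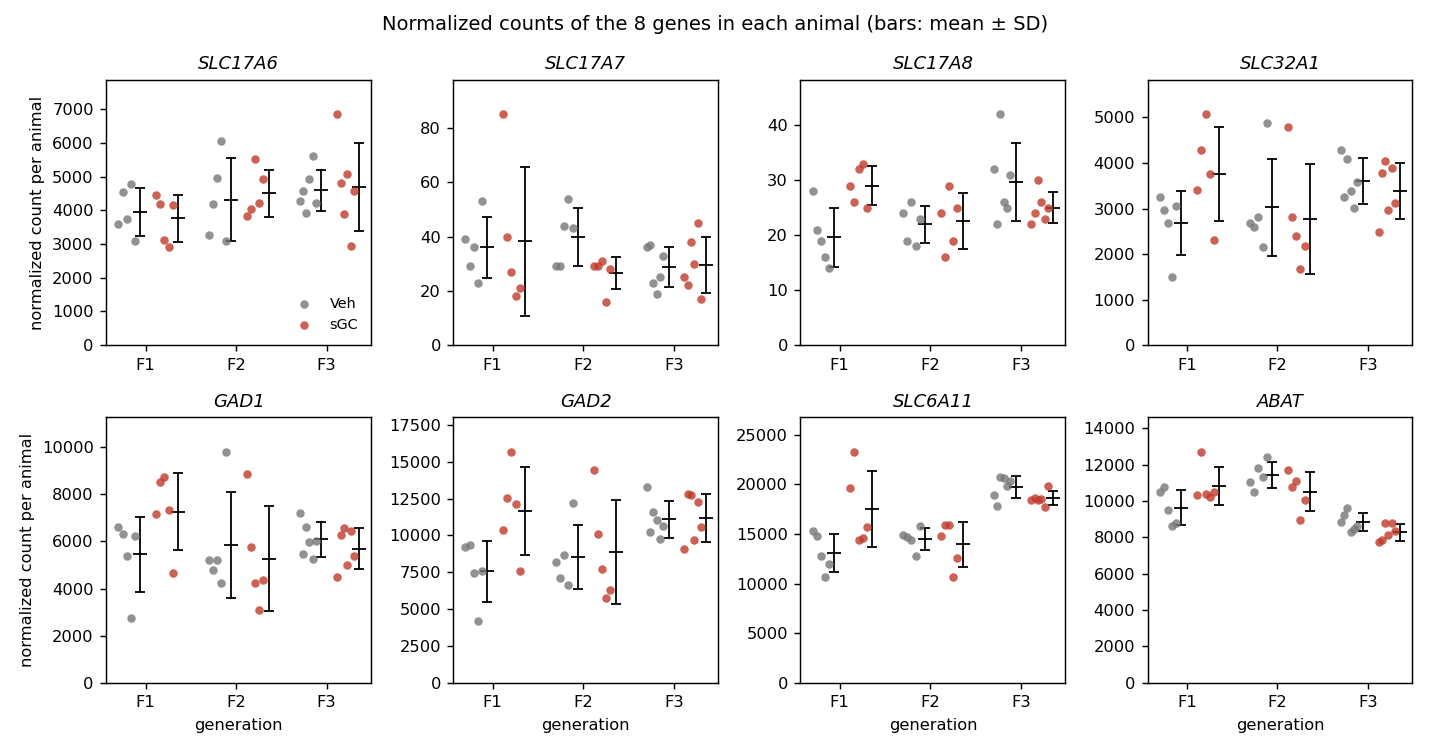
Normalized count (vertical axis, from 0) of each of the 8 genes in each animal by generation, with Veh in grey and sGC in red, and mean ± SD of each group as bars. The groups overlap for every gene in every generation, and 1 F1 Veh animal lies lowest for SLC32A1, GAD1 and GAD2.

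SLC17A6, the main vesicular glutamate transporter of the hypothalamus, did not separate the groups in F1. The Veh animals had 3582, 4554, 3729, 4789 and 3077 normalized counts and the sGC animals 4443, 4177, 3129, 2913 and 4145. The means were 3946 ± 710 (SD, n = 5) in Veh and 3761 ± 690 (SD, n = 5) in sGC, so that the log2 fold change was -0.07 with a 95% interval of -0.37 to 0.22 (limma, adjusted p = 0.882). Only 1 sGC animal lay outside the Veh range, below it.

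In F2, SLC17A6 ranged more widely among the Veh animals (3282, 4179, 4970, 6049 and 3081) than among the sGC animals (3825, 4047, 5514, 4209 and 4928). All 5 sGC animals lay within the Veh range, and the log2 fold change was 0.10, with an interval of -0.27 to 0.46 (limma, adjusted p = 0.837). In F3 it was the sGC animals that spread more, from 2946 to 6846 with a median of 4692, against 3922 to 5624 with a median of 4424 in Veh. The F3 log2 fold change was -0.01, with an interval of -0.33 to 0.32 (limma, adjusted p = 0.990). It was 0.15 in the first F3 sequencing batch alone (limma, adjusted p = 0.781), so its sign is not fixed. The lowest animal, at 2946, was 1 of the 2 sGC animals of the second batch.

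SLC17A7, the cortical type of glutamate transporter, was at 16 to 85 normalized counts in every animal. In F1 a single sGC animal reached 85, while the others had 40, 27, 18 and 21 and the Veh animals 39, 29, 36, 23 and 53. The F1 log2 fold change was -0.10 (limma, adjusted p = 0.934), with a wide interval of -0.80 to 0.60. In F2 the Veh animals had 29, 29, 44, 54 and 43 and the sGC animals 29, 29, 31, 16 and 28, so 0 of 5 sGC animals lay above the Veh mean. The F2 log2 fold change was -0.56 with a standard error of 0.24 and did not pass (limma, adjusted p = 0.402). In F3 the medians were 29.0 in Veh and 27.5 in sGC, with a log2 fold change of 0.00 and an interval of -0.49 to 0.49 (limma, adjusted p = 0.999).

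SLC17A8, the third vesicular glutamate transporter, was at 14 to 42 normalized counts. Its F1 values were 28, 21, 19, 16 and 14 in Veh and 29, 26, 32, 33 and 25 in sGC. All 5 sGC animals lay above the Veh mean and 3 of 5 above the highest Veh animal. The log2 fold change of 0.57, with an interval of 0.02 to 1.12, did not pass (limma, adjusted p = 0.345), nor did the 0.51 with size factors (limma, adjusted p = 0.0607). In F2 the fold change was 0.02 (limma, adjusted p = 0.974). In F3 it was -0.21 (limma, adjusted p = 0.574), with 22 to 42 in Veh and 22 to 30 in sGC.

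SLC32A1, the vesicular GABA transporter, had higher means in sGC in F1 without passing the test. The Veh animals had 3249, 2971, 2673, 1486 and 3050 normalized counts and the sGC animals 3407, 4283, 5069, 3749 and 2299. Thus 4 of 5 sGC animals lay above the highest Veh animal, and the fifth lay below 4 of the 5 Veh animals. The means of 2686 ± 702 (SD, n = 5) and 3761 ± 1030 (SD, n = 5) gave a log2 fold change of 0.49 with an interval of 0.09 to 0.89 (limma, adjusted p = 0.262). It was 0.43 with size factors, with an interval of -0.02 to 0.87 that included 0 (limma, adjusted p = 0.170). Without Veh animal SGM15, the lowest, it was 0.29 (limma, adjusted p = 0.576).

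GAD1, which makes most of the resting GABA pool, showed a similar order of animals. Its F1 values were 6595, 6303, 5373, 2737 and 6242 in Veh and 7152, 8506, 8713, 7319 and 4640 in sGC. The means of 5450 ± 1584 (SD, n = 5) and 7266 ± 1624 (SD, n = 5) differed by a log2 fold change of 0.45 with an interval of 0.04 to 0.86 (limma, adjusted p = 0.322). With size factors it was 0.38, with an interval of -0.06 to 0.83 that included 0 (limma, adjusted p = 0.217). Again 4 of 5 sGC animals exceeded every Veh animal. Without SGM15 the log2 fold change was 0.22 (limma, adjusted p = 0.662).

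GAD2, the synaptic decarboxylase, had the largest F1 difference of the 8 genes relative to its error. The Veh animals had 9237, 9362, 7452, 4191 and 7611 normalized counts and the sGC animals 10363, 12530, 15666, 12166 and 7566. The means were 7571 ± 2087 (SD, n = 5) and 11658 ± 2979 (SD, n = 5), and 4 of 5 sGC animals lay above the highest Veh animal. The log2 fold change was 0.64 with a standard error of 0.19 and an interval of 0.24 to 1.04 (limma, adjusted p = 0.123).

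The GAD2 result lay close to the threshold under several settings. With size factors the log2 fold change was 0.57 (limma, adjusted p = 0.0524), where 17.3% of all genes were called. With the directions taken out by the authors' removal of unwanted variation as covariates as well, it was 0.57 (limma, adjusted p = 0.0782). With equal sample totals it was 0.58 and passed (limma, adjusted p = 0.0487), as did 1943 of 11873 genes. Leaving out the lowest sGC animal, SGM20, gave 0.78, which passed (limma, adjusted p = 0.0385), as did 133 of 11878 genes. Leaving out SGM15 gave 0.44, which did not (limma, adjusted p = 0.350), while 15 of 11885 genes did.

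Marker lists of other cell groups and regions also differed between the F1 animals. The list of GABAergic lineage transcription factors (9 of 10 genes with a row, DLX1, DLX2, DLX5 and DLX6 among them) summed to 2130 to 5063 in Veh and 3486 to 6332 in sGC. Its median log2 fold change was 0.35 against 0.07 for all genes, with 8 of 9 above 0, MEIS2 at -0.0008 and 0 of 9 called. The thalamus list (7 of 7) summed to 6593 to 23721 in Veh and 5159 to 7387 in sGC, with a median of -0.70 and 0 of 7 called. Of its genes 5 were below 0 (among them TCF7L2, LHX9 and GBX2) and 2 above, PRKCD at 0.16 and LEF1 at 0.08. The PVN list (9 of 9, including AVP, OXT and CRH) summed to 96620 to 221334 in Veh and 25185 to 194967 in sGC. Its median was -0.64, with 8 of 9 below 0, NOS1 at 0.27 and 0 of 9 called. Of the suprachiasmatic list (3 of 5 with a row), 1 of 3 genes was called, LHX1, whose log2 difference was 1.04 (limma, adjusted p = 0.0247). In this list 2 of 3 genes were above 0 and 1 below, VIP at -0.41. SGM15 had the highest thalamus sum (23721) and the lowest sum of GABAergic factors (2130). With size factors 1 of 9 GABAergic factors, 1 of 9 genes of the PVN list, 3 of 9 pan-neuronal genes and 1 of 6 microglial genes were called. Of the suprachiasmatic list 1 of 3 was called, again LHX1 (limma, adjusted p = 0.0210), against 17.3% of all genes. The part of these differences in the F1 values of the GABA genes was not tested.

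In F2 the GABA genes did not separate the groups, and each group held 1 animal well above the rest. SLC32A1 was 2690, 2589, 2811, 2161 and 4889 in Veh and 4802, 2805, 2390, 1673 and 2177 in sGC, with a log2 fold change of -0.16 and an interval of -0.71 to 0.39 (limma, adjusted p = 0.814). GAD1 was 5195, 4799, 5198, 4215 and 9795 in Veh and 8857, 5782, 4232, 3086 and 4362 in sGC, and its log2 fold change of -0.17 had an interval of -0.74 to 0.39 (limma, adjusted p = 0.805). GAD2 was 8174, 7098, 8698, 6633 and 12177 in Veh and 14415, 10089, 7706, 5771 and 6271 in sGC, and its log2 fold change of -0.0014 had an interval of -0.49 to 0.49 (limma, adjusted p = 0.998). Veh animal SGM29 and sGC animal SGM21 were the highest of their groups for all 3 genes. Without SGM29 the values for SLC32A1, GAD1 and GAD2 were 0.02, 0.03 and 0.13, so their signs are not fixed.

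In F3 the GABA genes varied less within the groups than in F1 and F2, as did the sums of all values. SLC32A1 ranged from 3007 to 4295 in Veh (median 3489) and from 2493 to 4042 in sGC (median 3448), a log2 fold change of -0.10 with an interval of -0.35 to 0.15 (limma, adjusted p = 0.765). GAD1 ranged from 5238 to 7227 (median 5997) and from 4510 to 6590 (median 5818), with a log2 fold change of -0.10 and an interval of -0.31 to 0.11 (limma, adjusted p = 0.709). GAD2 ranged from 9787 to 13310 (median 10832) and from 9086 to 12836 (median 11433), with a log2 fold change of 0.01 and an interval of -0.19 to 0.20 (limma, adjusted p = 0.983). For each of the 3 genes 4 of 6 sGC animals lay within the Veh range.

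SLC6A11, the astrocyte GABA transporter, had an F1 mean of 13115 ± 1928 (SD, n = 5) in Veh and 17520 ± 3849 (SD, n = 5) in sGC. The animals had 15298, 14803, 12785, 10683 and 12005 in Veh and 19650, 23268, 14419, 14557 and 15705 in sGC. All 5 sGC animals lay above the Veh mean and 3 of 5 above the highest Veh animal. The log2 fold change of 0.40, with an interval of 0.10 to 0.71, did not pass (limma, adjusted p = 0.204), nor did the 0.34 with size factors (limma, adjusted p = 0.0716). The astrocyte list (10 of 10 with a row) summed to 144243 to 210912 in Veh and 172104 to 222819 in sGC, and 0 of 10 were called. The oligodendrocyte list (7 of 8 with a row) summed to 38318 to 48203 in Veh and 37353 to 104659 in sGC, with 0 of 7 called. Its 2 highest animals, SGM8 at 104659 and SGM4 at 70487, were also the 2 highest for SLC6A11. The part of either list in the SLC6A11 difference was not tested.

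SLC6A11 had smaller differences between the groups in the later generations. In F2 it was 14938, 14730, 14352, 12745 and 15800 in Veh and 14773, 15873, 15885, 10620 and 12600 in sGC (log2 fold change -0.07, interval -0.31 to 0.17, limma, adjusted p = 0.820), and with size factors the sign changed (0.0037). In F3 it ranged from 17847 to 20710 in Veh (median 20085) and from 17691 to 19871 in sGC (median 18486). That F3 log2 fold change of -0.08 had an interval of -0.17 to -0.00 (limma, adjusted p = 0.369), and 1 of 6 sGC animals exceeded the Veh mean.

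ABAT, the enzyme that degrades GABA, varied least between animals within the groups of F1 and F2. In F1 it was 10501, 10778, 9487, 8612 and 8803 in Veh and 10304, 12696, 10363, 10220 and 10518 in sGC. The log2 fold change was 0.17 with an interval of -0.07 to 0.41 (limma, adjusted p = 0.586), and 1 sGC animal, at 12696, stood above the rest. In F2 it was 11046, 10517, 11832, 11312 and 12412 in Veh and 11719, 10767, 11120, 8929 and 10045 in sGC (log2 fold change -0.12, limma, adjusted p = 0.583). In F3 it ranged from 8298 to 9639 in Veh and 7750 to 8809 in sGC, and 0 of 6 sGC animals exceeded the Veh mean. The F3 log2 fold change of -0.10 had an interval of -0.19 to -0.01 and did not pass (limma, adjusted p = 0.354).

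**Figure D2:**
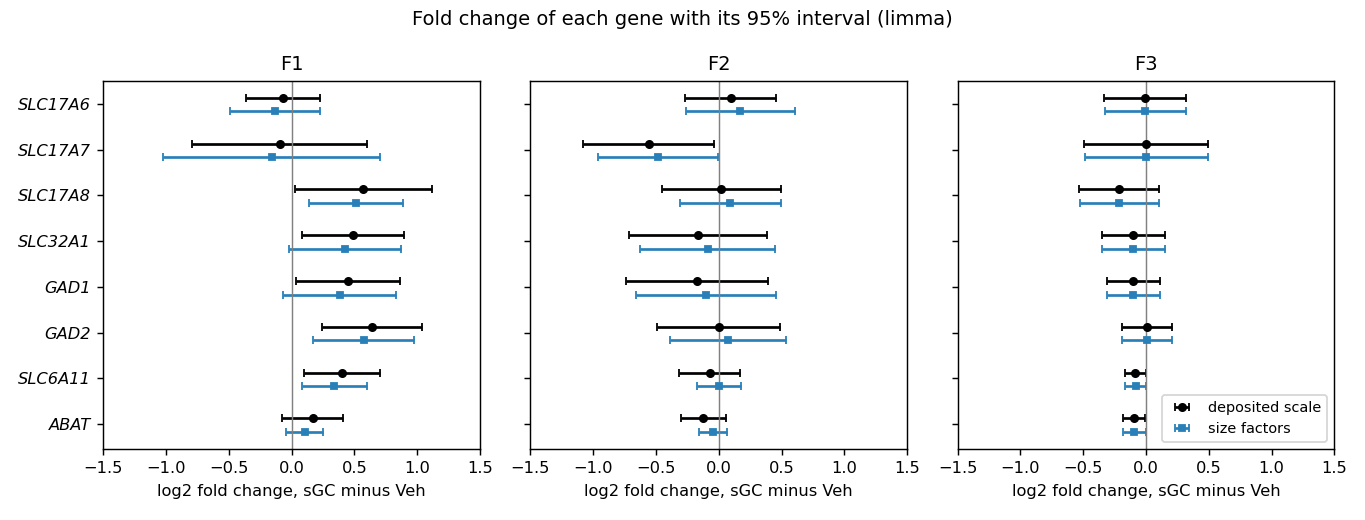
Log2 fold change of each gene, sGC minus Veh (horizontal axis), with its unadjusted 95% limma interval in each generation, on the deposited scale (black circles) and with size factors (blue squares). In F1 the interval of GAD2 runs from 0.24 to 1.04 on the deposited scale, while in F3 that of SLC32A1 runs from -0.35 to 0.15.

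The fold changes of the genes were compared between generations by permuting the treatment labels within each generation, for 27 differences in all (8 genes and the ratio described next, in 3 pairs of generations). None passed after adjustment over the 27. The smallest exact p belonged to SLC17A8, whose fold changes of 0.57 in F1 and -0.21 in F3 differed by 0.79 (exact permutation p = 0.00473, adjusted p = 0.0764). Those of SLC6A11, 0.40 in F1 and -0.08 in F3, differed by 0.49 (exact permutation p = 0.00566, adjusted p = 0.0764). For ABAT the difference between F1 and F3 was 0.26 (exact permutation p = 0.0114, adjusted p = 0.103). For GAD2 it was 0.63 between F1 and F3 (exact permutation p = 0.0608, adjusted p = 0.251).

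The ratio of SLC17A6 to SLC32A1 in an animal does not depend on how that animal was scaled, and it sets the marker of glutamate neurons against that of GABA neurons. In F1 it was 1.10, 1.53, 1.395, 3.22 and 1.01 in Veh and 1.30, 0.975, 0.617, 0.777 and 1.80 in sGC. The difference of the mean log2 ratios was -0.56 (exact permutation test, p = 0.206, adjusted over the 3 generations p = 0.619). The Veh animal at 3.22 was SGM15, without which the difference was -0.28 (exact permutation test, adjusted p = 0.758), and 3 of 5 sGC animals lay below the lowest Veh animal.

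In F2 the ratio was 1.22, 1.61, 1.77, 2.80 and 0.630 in Veh and 0.797, 1.44, 2.31, 2.52 and 2.26 in sGC, a log2 difference of 0.26 (exact permutation test, p = 0.579, adjusted p = 0.758). All 5 sGC animals lay within the Veh range. In F3 it ranged from 0.957 to 1.87 in Veh (median 1.29) and from 0.759 to 2.75 in sGC (median 1.37), a log2 difference of 0.10 (exact permutation test, p = 0.758, adjusted p = 0.758). The sign in F2 turned without SGM29 (-0.04) and in F3 without sGC animal SGM10 (-0.11). Between the highest and the lowest animal the ratio spanned 5.22-fold in F1, 4.44-fold in F2 and 3.62-fold in F3.

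**Figure D3:**
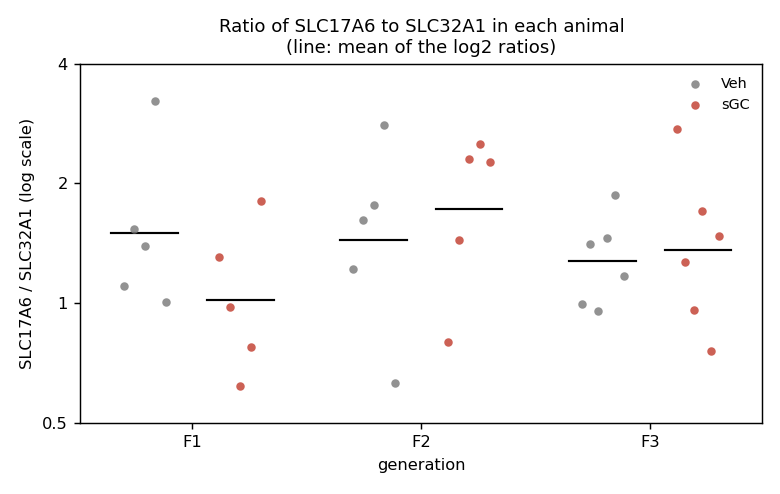
Ratio of SLC17A6 to SLC32A1 in each animal (vertical axis, log scale) by generation, with Veh in grey, sGC in red and the mean of the log2 ratios as a line. The highest animal, at 3.22, is an F1 Veh animal, and the lowest, at 0.617, an F1 sGC animal.

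The spread among animals of the same group was shared by the GABA genes and opposite for SLC17A6. Each animal's log2 value with size factors was taken as its deviation from the mean of its own group, giving 32 deviations per gene, and all 28 pairs of the 8 genes were correlated with p from 100000 permutations within the groups. SLC32A1 and GAD1 had Pearson's r of 0.979 and Spearman's rho of 0.978 (permutation p = 1e-05, the smallest they can give, adjusted p = 5.6e-05 for both). SLC32A1 and GAD2 had r of 0.962 and rho of 0.956, and GAD1 and GAD2 had r of 0.950 and rho of 0.954 (permutation p = 1e-05, adjusted p = 5.6e-05 for each). Without the 2 animals farthest from the median, r was 0.968, 0.946 and 0.933 in the same order. In every generation r was high, from 0.942 for GAD1 and GAD2 in F1 to 0.990 for SLC32A1 and GAD1 in F3.

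SLC17A6 ran against all 3 of them. Its r was -0.72 with SLC32A1 (rho -0.77), -0.70 with GAD1 (rho -0.75) and -0.72 with GAD2 (rho -0.77), with permutation p of 1e-05, 1e-05 and 2e-05 and adjusted p of 5.6e-05, 5.6e-05 and 9.33e-05, the same for r and rho. For SLC17A6 and SLC32A1, r was -0.79 in F1, -0.66 in F2 and -0.83 in F3, -0.88 in the first F3 batch, and -0.73 over all animals without the 2 farthest from the median of SLC17A6. Without those 2, r was -0.71 with GAD1 and -0.75 with GAD2. An animal with more SLC32A1 than the mean of its group thus tended to have less SLC17A6.

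**Figure D4:**
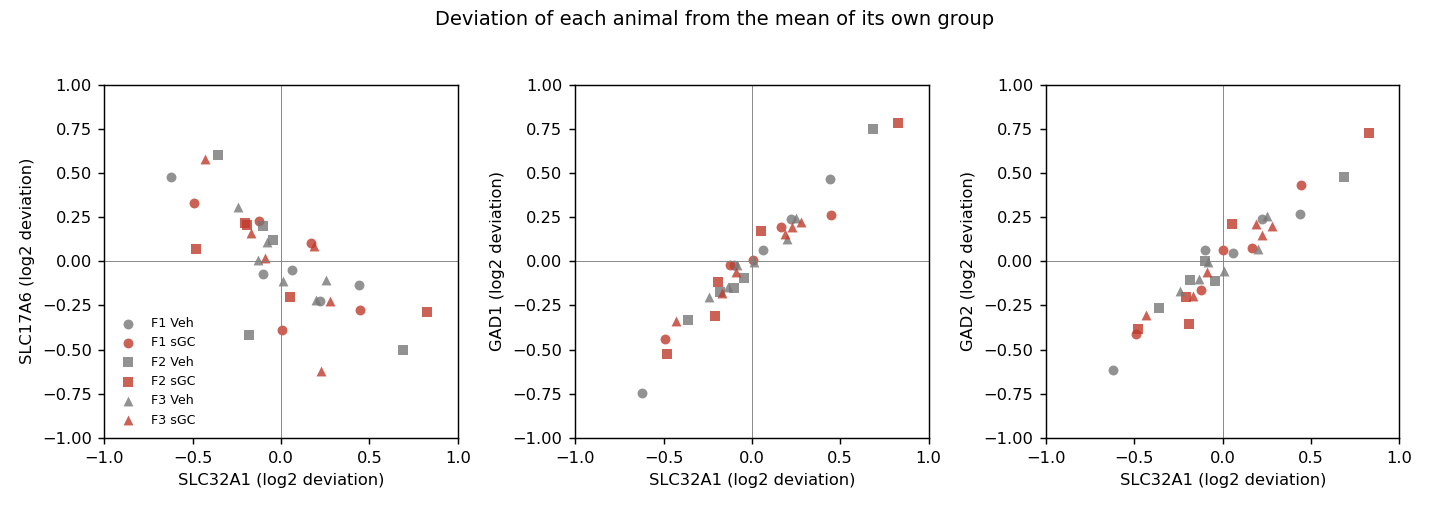
Deviation of each of the 32 animals from the mean of its own group (log2, with size factors), with SLC32A1 on the horizontal axis and SLC17A6, GAD1 and GAD2 on the vertical axes, Veh in grey, sGC in red and a marker shape for each generation. SLC17A6 declines along SLC32A1 (r of -0.72), while GAD1 and GAD2 follow it closely (r of 0.979 and 0.962).

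The other 22 pairs did not pass after adjustment over the 28. SLC6A11 and ABAT had r of 0.42 and rho of 0.28 (permutation p = 0.112 and 0.201, adjusted p = 0.366 and 0.432), and r turned from 0.68 in F1 to -0.17 in F3. SLC6A11 and SLC32A1 had r of 0.18 and rho of 0.22 (permutation p = 0.391 and 0.290, adjusted p = 0.618 and 0.503). On the deposited scale 11 of the 28 pairs passed for r and 10 of these also for rho, and the r of SLC17A6 with SLC32A1 was -0.60.

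The genes most like each of the members were sought among 11429 genes tested in all 3 tables, by r over the same 32 deviations, as a description without a test. For SLC32A1 they were GAD1 (0.979), GAD2 (0.962), the GABA lineage factor DLX6 (0.947), the calcium channel subunit CACNA2D2 (0.942) and DLX5 (0.927). For GAD1 they were SLC32A1 (0.979), DLX6 (0.975), the guanine deaminase GDA (0.954), GAD2 (0.950) and the presynaptic adhesion protein NRXN3 (0.946). For GAD2 they were SLC32A1 (0.962), GAD1 (0.950), DLX5 (0.945), DLX6 (0.935) and NRXN3 (0.929). DLX6 was thus among the 5 nearest genes of all 3.

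SLC17A6 had other neighbours. The closest were SYNPO2 (0.883), a gene of the thalamus list, CPNE9 (0.839), PIK3AP1 (0.835), ARPP21 (0.831) and the lipoprotein lipase gene Lpl (0.826). For SLC6A11 they were the cation channel TRPM3 (0.901), HTRA1 (0.883), SASH1 (0.857), SEMA6D (0.852) and glutamine synthetase GLUL (0.852), a gene of astrocytes. For SLC17A7, at its low counts, they were MRPS18C (0.770), ADAMTS18 (0.749), PHLDA3 (0.734), DTNBP1 (0.731) and PLXDC2 (0.703).

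The same deviations were set against the mean deviation of each of 12 marker lists, 96 relations in all, of which 14 passed for r and 11 of these also for rho. The mean of the GABAergic transcription factors (9 genes) had r of 0.976 with SLC32A1, 0.962 with GAD1, 0.950 with GAD2 and -0.79 with SLC17A6, with rho of 0.972, 0.953, 0.951 and -0.81 (permutation p = 1e-05, adjusted p = 0.00024 for each r and rho). In each generation r kept its sign, with r for SLC17A6 from -0.71 in F2 to -0.92 in F3.

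The thalamus list (6 genes used) had r of 0.69 with SLC17A6 and rho of 0.68 (permutation p = 0.00027 and 0.00047, adjusted p = 0.00324 and 0.00752). SYNPO2, the gene nearest to SLC17A6, is in this list. The r of the list with SLC17A6 was 0.89 in F1, 0.92 in F2 and 0.05 in F3, a difference between generations that was not tested. With GAD2 the list had r of -0.71 and rho of -0.68 (permutation p = 4e-05 and 0.00012, adjusted p = 0.000768 and 0.0023), with r of -0.88 in F1, -0.71 in F2 and -0.27 in F3. Without the 2 animals farthest from the median, r was 0.69 for SLC17A6 and -0.64 for GAD2. The part of the regions in the punch in the level of these genes was not tested.

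SLC6A11 had r of 0.68 and rho of 0.51 with the oligodendrocyte list of 7 genes (permutation p = 0.00198 and 0.0162, adjusted p = 0.0190 and 0.0915), with r of 0.89 in F1, 0.65 in F2 and -0.51 in F3 and 0.53 without the 2 farthest animals. It had r of 0.49 and rho of 0.61 with the astrocyte list (permutation p = 0.00605 and 0.00211, adjusted p = 0.0447 and 0.0203), with r from 0.49 to 0.67 in the 3 generations and 0.43 without the 2 farthest animals. ABAT had r of -0.60 and rho of -0.58 with the suprachiasmatic list of 3 genes (permutation p = 0.00084 and 0.00146, adjusted p = 0.00896 and 0.0156), with r from -0.21 in F2 to -0.90 in F3 and -0.57 without the 2 farthest animals. The PVN list passed with none of the 8 genes. Its lowest adjusted p was with SLC6A11, at r of -0.63 and rho of -0.54 (permutation p = 0.0145 and 0.00832, adjusted p = 0.0820 and 0.0572), with r from -0.78 in F1 to -0.28 in F3. With SLC17A6 both r and rho were -0.41 (permutation p = 0.0204 and 0.0343, adjusted p = 0.109 and 0.157).

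The proportions among the GABA genes varied far less between animals than their levels. All 28 ratios between members were compared in the 3 generations, 84 in all. An exact permutation p under 0.05 was found for 8, and 0 passed after adjustment over the 84. The smallest possible exact permutation p was 0.00794 in F1 and F2 and 0.00216 in F3. A single ratio at that p could therefore not pass this adjustment by itself. The ratio of GAD1 to GAD2, singled out here after its values were seen, was lower in the sGC group mean in each generation.

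In F1 the ratio of GAD1 to GAD2 was 0.714, 0.673, 0.721, 0.653 and 0.820 in Veh and 0.690, 0.679, 0.556, 0.602 and 0.613 in sGC, a log2 difference of -0.19 (exact permutation test, p = 0.0556). In F2 it was 0.636, 0.676, 0.598, 0.636 and 0.804 in Veh and 0.614, 0.573, 0.549, 0.535 and 0.696 in sGC, a log2 difference of -0.17 (exact permutation test, p = 0.119). The groups overlapped in both generations, with 3 of 5 sGC animals below the lowest Veh animal in each.

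In F3 the ratio of GAD1 to GAD2 ranged from 0.533 to 0.570 in Veh (median 0.542) and from 0.487 to 0.525 in sGC (median 0.511). The groups did not overlap, as in no other of the 84 ratios. The log2 difference was -0.11 (exact permutation test, p = 0.00216, the smallest that 6 against 6 animals can give). It did not pass after adjustment over the 84 ratios (adjusted p = 0.182). That is the least that 1 ratio alone at this p can have, so the adjusted test could not decide. Within the first batch the log2 difference was -0.12 (exact permutation test, p = 0.00476, the smallest that 6 against 4 can give). These are a part of the same animals, and groups that do not overlap cannot overlap in a part of them. That p is therefore no further test of the difference. Neither gene alone separated the F3 groups.

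The counterpart was the ratio of GAD2 to SLC32A1, which was higher in the sGC mean by 0.15 in F1, 0.16 in F2 and 0.11 in F3 on the log2 scale (exact permutation tests, p = 0.0397, 0.111 and 0.0325, adjusted p = 0.50, 0.588 and 0.50). The ratio of GAD1 to SLC32A1 differed by -0.04, -0.01 and 0.00 (exact permutation tests, p = 0.516, 0.817 and 0.989). So within these 3 genes it was GAD2 whose share differed between the group means, at sizes that the adjusted tests did not pass.

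**Figure D5:**
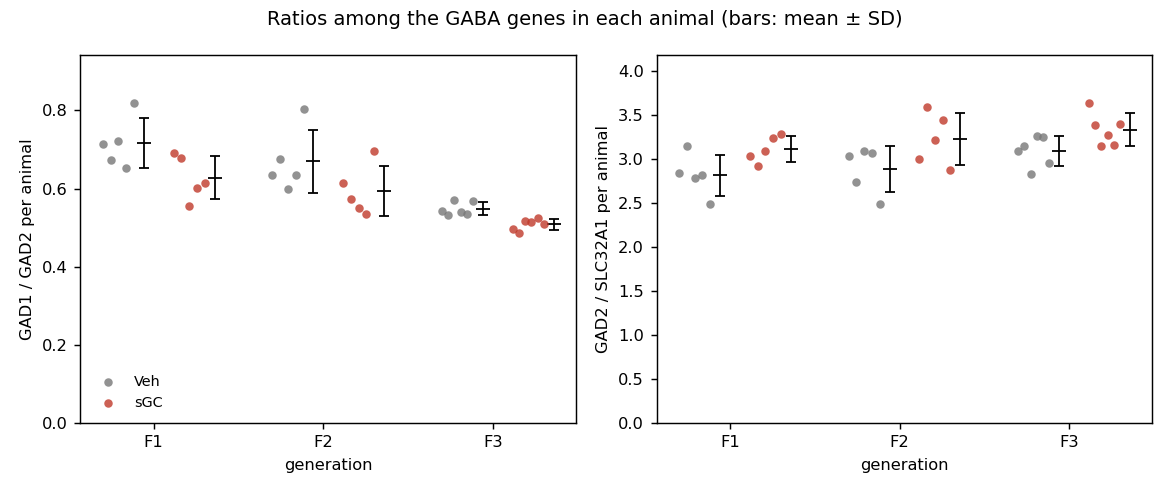
Ratio of GAD1 to GAD2 (left) and of GAD2 to SLC32A1 (right) in each animal by generation (vertical axes from 0), with Veh in grey, sGC in red and mean ± SD as bars. In F3 the GAD1 to GAD2 ratio of the sGC animals, 0.487 to 0.525, lies below that of the Veh animals, 0.533 to 0.570.

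Genes that make, recycle or clear glutamate and GABA formed a list of 22, of which 18 were tested in each generation. On the deposited scale 0 of 18 were called in F1, F2 and F3, with median log2 fold changes of 0.11, -0.08 and -0.02 against 0.07, -0.08 and -0.00 for all genes. In F1 the lowest p values were those of GLUL, which makes glutamine from glutamate in astrocytes (log2 fold change 0.51, limma, adjusted p = 0.142), and of the astrocyte glutamate transporter SLC1A2 (0.48, limma, adjusted p = 0.174).

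With F1 size factors 5 of the 18 were called, 2 higher and 3 lower, against 17.3% of all genes (8.48% higher and 8.86% lower). GLUL rose by 0.45 (limma, adjusted p = 0.0423) and the glutamine transporter SLC38A1 by 0.16 (limma, adjusted p = 0.0202). The glutamate transporter SLC1A1 fell by 0.27 (limma, adjusted p = 0.0126) and the mitochondrial glutamate carrier SLC25A22 fell by 0.32 (limma, adjusted p = 0.0191). In F2 the lowest p values were those of SLC38A3 (0.30, limma, adjusted p = 0.527) and GOT1 (-0.20, limma, adjusted p = 0.534). In F3 SLC1A6, a neuronal glutamate transporter, was at 563.5 ± 14.2 (SD, n = 6) in Veh and 631.0 ± 15.4 (SD, n = 6) in sGC, and the difference of 0.16 on the log2 scale did not pass (limma, adjusted p = 0.0689), followed by SLC38A1 (-0.06, limma, adjusted p = 0.340).

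Of 16 genes for other transmitters, 0 of 10 tested in F1, 0 of 9 in F2 and 0 of 8 in F3 were called. In F1 the vesicular monoamine transporter SLC18A2 differed by 0.30 on the log2 scale (limma, adjusted p = 0.315) and with size factors it rose, by 0.23 (limma, adjusted p = 0.0486), and the histamine enzyme HDC had 0.64 (limma, adjusted p = 0.355). In F2 HDC had 0.46 (limma, adjusted p = 0.349) and the dopamine enzyme TH -0.80 (limma, adjusted p = 0.50). In F3 SLC18A2 had -0.14 (limma, adjusted p = 0.218) and the dopamine transporter SLC6A3 0.98 (limma, adjusted p = 0.238).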

How the data were processed

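The authors made RNA libraries from PVN punches, sequenced them, aligned the reads to the guinea pig genome (cavPor3) and counted them on genes with GenomicAlignments. They corrected the 2 sequencing batches of F3 with ComBat, and RUVSeq removed unwanted variation from every generation by its residual method. The deposited values, normalized counts rounded to whole numbers, have the unit score here, so they received neither a count model nor a counting interval. The tables also hold the authors' fold changes, p-values and false discovery rates, which were not used.

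The residual step used the treatment groups and left 1 direction of near-zero spread in F1, 1 in F2 and 2 in F3, so the spread within groups is smaller than in the reads and p-values may be too small by an amount that was not tested. F3 sGC animals SGM21-batch2 and SGM22-batch2 came from the second batch. Veh animals SGM5 and SGM9 were sequenced again in that batch. Those 2 repeat libraries were left out here, so every Veh library analysed is of the first batch.

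Each generation was fitted on its own with limma 3.58.1 (R 4.3.3, eBayes with trend) on log2(value + 1), keeping genes whose mean was 10 or more. The Benjamini-Hochberg threshold was 0.05. The log2 scale understates changes of low genes. Ratios and differences between generations were tested by exact permutation, two-sided. The named genes are the 8 members, the 5 genes most like each of 6 members, and, from each list of related genes, those called or else the 2 with the lowest p. Some genes of these lists are not reported here by name. The members and lists were chosen with earlier results of these data known. Alternatives were size factors, equal totals, a pseudocount of 5, no filter, a mean of at least 50, the removed directions as covariates, each animal left out, and the F3 batches. The number in the column names as a replicate block, size factors combined with the removed directions or with an animal left out, and the ratios other than SLC17A6 to SLC32A1, were added after seeing the data. The fit was tested on simulated data.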

Additional observations from a re-analysis of the deposited data

Results flagged for a closer look

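Among 54 groups of values (the 8 genes and the SLC17A6 to SLC32A1 ratio in 6 groups), 6 held an animal far from the others of its group by Dixon's criterion, where chance gives about 1 in 20, or 2.7. Values are given as log2(normalized count + 1). Of these 6, 3 were the same F1 Veh animal, SGM15, which had 10.54 for SLC32A1 against 11.38 to 11.67 in the others, 11.42 for GAD1 against 12.39 to 12.69, and 12.03 for GAD2 against 12.86 to 13.19. F2 Veh animal SGM29 had 13.26 for GAD1 against 12.04 to 12.34. F1 sGC animal SGM8 had 13.63 for ABAT against 13.32 to 13.36. F2 sGC animal SGM24 had 4.09 for SLC17A7 against 4.86 to 5.00.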

How the results depend on the processing

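Of 458 recomputed fold changes of the 8 genes, 410 kept their direction and their side of the threshold, 2 passed it where the reported value did not (GAD2 in F1 with equal totals and without SGM20), and 46 changed sign, each of a fold change whose 95% interval included 0. The cause of these changes was not tested. Genes called in F1 numbered 78, and 2058 with size factors, 1943 with equal totals, 1345 with size factors and the removed directions as covariates, and 15 (without Veh SGM15) to 474 (without Veh SGM7) with an animal left out. In F2 the 0 genes became 17 with a mean of at least 50 and 0 to 114 (without Veh SGM28) with an animal left out. In F3 the 6 genes became 1 with the removed directions as covariates, with or without size factors, 2 in the first batch only, 3 with the batch as a covariate, and 1 to 15 (without sGC SGM18) with an animal left out.

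Signs changed in F2 for GAD2 (0.0725 with size factors, 0.0823 with equal totals, 0.0726 with size factors and removed directions) and SLC6A11 (0.00367, 0.0135 and 0.00369 in the same order). In F3 they changed for SLC17A6 (0.146 in the first batch and with the batch as a covariate), GAD2 (-0.0116 in both), SLC17A7 (-0.000835 with equal totals) and the ratio with GAD2 in place of SLC32A1 (-0.0140). With an animal left out, values that changed sign in F1 were SLC17A6 (-0.16 to 0.016) and SLC17A7 (-0.44 to 0.11, with size factors -0.49 to 0.055). In F2 they were SLC17A6 (-0.014 to 0.23), SLC17A8 (-0.072 to 0.13), SLC32A1 (-0.39 to 0.024, with size factors -0.30 to 0.082), GAD1 (-0.39 to 0.029, -0.30 to 0.087), GAD2 (-0.20 to 0.13, -0.11 to 0.19), SLC6A11 (-0.12 to 0.024, -0.032 to 0.061) and the ratio (-0.038 to 0.54). In F3 they were SLC17A6 (-0.13 to 0.12, with size factors -0.12 to 0.12), SLC17A7 (-0.13 to 0.14 on both scales), GAD2 (-0.034 to 0.065, with size factors -0.033 to 0.070) and the ratio (-0.11 to 0.26). Of the 28 relations, 6 passed for both r and rho with size factors, and 11 for r (10 for both) on the deposited scale. The labels pair no animals, but the column names number both groups alike. Same-numbered animals did not deviate together (correlations of -0.239 to 0.313 in F1, -0.412 to 0.223 in F2 and -0.542 to 0.185 in F3), and 2 of 16 Veh animals correlated best with their own number. With this number as a replicate block, chosen after seeing the data, 146 genes were called in F1, 6 in F2 and 0 in F3 (limma, 1127 at an unadjusted p under 0.05), and none of the 8 genes passed. The number of animals and the low counts of SLC17A7 and SLC17A8 limit the precision.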

Other observations

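Of the marker lists, the cortex and hippocampus list (3 genes used) had r of 0.52 with SLC17A6 (permutation p = 0.00412, adjusted p = 0.0330) and rho of 0.48 (permutation p = 0.0124, adjusted p = 0.0743), and with GAD1 r of -0.46 (permutation p = 0.00716, adjusted p = 0.0491) and rho of -0.51 (permutation p = 0.00388, adjusted p = 0.0339). ABAT had r of 0.53 with the list of pan-neuronal genes (permutation p = 0.00405, adjusted p = 0.0330) and rho of 0.37 (permutation p = 0.0711, adjusted p = 0.244), with r of 0.73 in F1, 0.88 in F2 and -0.51 in F3. Among the ratios of members, SLC17A6 to SLC6A11 in F1 was lower in sGC by a log2 difference of -0.48 (exact permutation test, p = 0.0238, adjusted over 84 ratios p = 0.50), and SLC17A6 to SLC17A7 in F2 was higher by 0.65 (exact permutation test, p = 0.0238, adjusted p = 0.50).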
